A study of Oryza sativa with 4 samples.

Results

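At anther stage 9, rice spikelets carrying an RNA interference (RNAi) construct against OsCPK21 were set against spikelets of ZH11, the cultivar that served as their genetic background. The comparison was chosen by sample title, and it used 2 of the 4 arrays of the series, 1 of RNAi spikelets and 1 of ZH11 spikelets. The members were all 57194 probe sets of the Affymetrix Rice Genome Array that were not controls, of 57381 in the file, whether or not they had a gene name. Both groups were whole spikelets from untreated plants grown in the field, taken when their anthers were at stage 9. The labels name 3 RNAi lines, but the sources used here say neither whether the hybridised RNA came from a pool of them nor which promoter drove the construct. With 1 array a side there was no replicate spread and no test was run, so every value below is a description of these arrays.

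OsCPK21 encodes a calcium-dependent protein kinase, an enzyme that binds calcium through its own EF hands and then phosphorylates other proteins. The tapetum is the innermost cell layer of the anther wall, which feeds the developing microspores, delivers lipids and sporopollenin precursors for the pollen wall, and then dies in a programmed way. Jasmonate is a lipid-derived hormone of stress and stamen development, whose perception leads to the destruction of JAZ proteins, the repressors that hold back its target genes. Jasmonate also induces many JAZ genes, so their transcripts are widely used as a readout of the pathway.

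The labels of these samples disagreed with each other, and the array signals went both ways. Title, description and source name all gave the same genotype to each sample, and RNAi and ZH11 are used here in that sense. The genotype characteristic gave the opposite genotype to each sample. OsCPK21 itself (LOC4346187, chromosome 8, 1 probe set) gave a signal of 206 in RNAi, against 1940 in ZH11. It was thus 9.41-fold lower in RNAi, a log2 ratio of -3.23, which is the direction that the titles give. At stage 12 its signals were 17.6 in RNAi and 2719 in ZH11.

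The array also carried 64 reporter probe sets, which stood outside the members. The reporter probe set RPTR-Os-K01193-1_at gave 841 in RNAi at stage 9, against 10742 in ZH11 at stage 9, so that it was 12.8-fold higher in ZH11. RPTR-Os-A00196-1_s_at gave 380 in RNAi, against 5523 in ZH11, a 14.5-fold difference in the same direction. At stage 12 RPTR-Os-K01193-1_at gave 2923 in RNAi and 7544 in ZH11, and RPTR-Os-A00196-1_s_at gave 1318 in RNAi and 5406 in ZH11. The other 62 reporter probe sets stayed at or below 105 on all 4 arrays. Both bright reporters were therefore higher on the arrays titled ZH11, which the genotype characteristic calls RNAi, while OsCPK21 was lower on the arrays titled RNAi. What set the reporter signals was not tested, and whether the ZH11 plants carried any construct is not stated in the labels. If the genotype characteristic were right, every direction between the genotypes below would turn round.

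The arrays were close in brightness, with a median signal of 81.7 in RNAi and 85.1 in ZH11, and 14984 and 15073 genes above the floor in the same order. The floor was a signal of 71, to which lower signals were raised before a log2 ratio of RNAi over ZH11 was taken. The ratio of 3′ to 5′ probe sets, a sign of RNA length, was 4.20 in RNAi and 3.89 in ZH11 for actin, and 2.50 and 1.96 for Gapdh. The 36 probe sets for the poly-A control transcripts read 0.641 times as bright in RNAi as in ZH11 at the median (range 0.558 to 0.706). The 27 hybridization controls read 0.861 times as bright at the median. Scaling the arrays to the poly-A controls, a setting chosen after seeing the data, moved the median log2 ratio of probe sets that passed the floor on both arrays to 0.58, against -0.05 on the deposited scale. All ratios below are on the deposited scale. Of 118 genes past 2-fold that the naming rule picked, 4 of them known by locus number only, 22 would be within 2-fold on the poly-A scale, all of them lower in RNAi. Why the controls differed was not tested.

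Of 32432 member probe sets above the floor on either array, 803 (2.48%) were at least 2-fold higher in RNAi and 632 (1.95%) were at least 2-fold lower. Probe sets with exactly 1 gene in the platform annotation numbered 22436 and stood for 17905 genes, the probe set with the highest mean log2 signal standing for each gene. Of 15360 genes that passed the floor on at least 1 array, 504 (3.28%) were at least 2-fold higher in RNAi and 348 (2.27%) were at least 2-fold lower. These are the genes called higher and lower in what follows. Scaled to the poly-A controls, 1650 genes would be higher and 129 lower. Past 4-fold, 152 genes were higher and 70 lower, past 8-fold 57 were higher and 32 lower, and past 16-fold 16 were higher and 14 lower. Most genes differed little. Over the 14697 genes that passed it on both arrays, the 5th and 95th percentiles of the log2 ratio were -0.64 and 0.69. Their log2 signals had a Pearson correlation of 0.952, given across genes, which are not independent replicates.

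**Figure D1:**
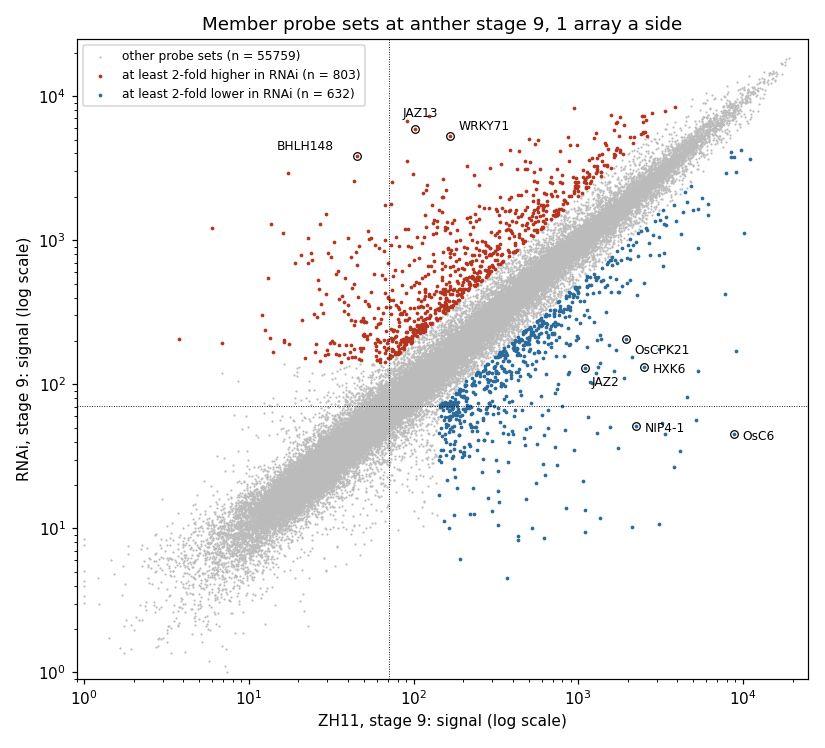
Signal of each member probe set in RNAi at stage 9 (vertical axis, log scale) against ZH11 at stage 9 (horizontal axis, log scale), 1 array a side. Red points are the 803 probe sets at least 2-fold higher in RNAi, blue points the 632 at least 2-fold lower, gray points the others, and dotted lines the floor of 71. JAZ13, BHLH148 and WRKY71 lie farthest above the gray band among named genes, and OsC6 and NIP4-1 farthest below it.

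The absence of a gene name did not mean the absence of a difference. The 34663 member probe sets with no gene in the annotation were dimmer as a class, with 41.1% of them above the floor on either array, against 80.7% of those with 1 gene. Among 14253 above the floor, 221 (1.55%) were higher in RNAi and 238 (1.67%) were lower. The share past 2-fold was thus smaller here, at 3.22%, against 5.38% of probe sets with 1 gene and 4.42% of all member probe sets. The highest of them gave 7232 in RNAi, against 125 in ZH11, which made it 58.0-fold higher, and the next gave 1792 in RNAi and 73.2 in ZH11, 24.5-fold higher. The lowest read 10.2 in RNAi, against 2129 in ZH11, at least 30.0-fold lower, and the next lowest read 35.8 in RNAi, against 1748 in ZH11, at least 24.6-fold lower. "At least" is written where the dimmer array was at or below the floor, so that only a bound can be given. Large differences in both directions thus lay among probe sets that the annotation leaves unnamed.

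Jasmonate genes held the highest ratios among named genes. Of 13 JAZ repressor genes on the array, 12 were above the floor, of which 7 were higher in RNAi and 1 was lower, with a median log2 ratio of 1.37 against -0.04 over all genes above the floor. JAZ13 gave 5923 in RNAi and 102 in ZH11, 58.0-fold higher and the highest log2 ratio of any named gene. JAZ12 gave 2679 in RNAi, against 150 in ZH11, 17.8-fold higher. In ZH11 both genes were near the floor, and in RNAi both were among the brighter genes. JAZ11 gave 3189 in RNAi and 292 in ZH11, 10.9-fold higher. JAZ10 gave 8258 in RNAi and 949 in ZH11, 8.70-fold higher, and a further probe set for it gave a log2 ratio of 3.59. JAZ8 (1617 in RNAi, 384 in ZH11) was 4.21-fold higher, JAZ9 (7313 in RNAi, 2508 in ZH11) was 2.92-fold higher, and JAZ6 (2913 in RNAi, 1275 in ZH11) was 2.29-fold higher. These 7 genes ran from near the floor to bright in ZH11, and all were bright in RNAi. Scaled to the poly-A controls, the list again counted 7 higher and 1 lower.

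The remaining JAZ genes were within 2-fold, below the floor or lower. JAZ4 (1922 in RNAi, 1566 in ZH11), JAZ3 (1062 in RNAi, 1093 in ZH11), JAZ7 (4839 in RNAi, 5245 in ZH11) and JAZ1 (6740 in RNAi, 7490 in ZH11) were within 2-fold, and JAZ5 was below the floor on both arrays. JAZ2 went the other way, with 130 in RNAi and 1106 in ZH11, 8.54-fold lower. The probe sets that stand for JAZ2, JAZ4, JAZ6 and JAZ10 have an ID suffix that marks a possible match to related transcripts, so their signals may be shared with other genes. JAZ9, JAZ11 and JAZ10 are neighbours on chromosome 3 among the genes on the array, and JAZ13 and JAZ12 are neighbours on chromosome 10. Close copies of this kind can share probes.

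In the list of jasmonate synthesis genes, AOS1 and 2 oxophytodienoate reductase genes were higher. Of 17 on the array, 11 were above the floor, and 3 were higher in RNAi and none lower, with a median log2 ratio of 0.30. OPR4, of the oxophytodienoate reductase family, gave 1234 in RNAi and 139 in ZH11, 8.86-fold higher. OPR1, its neighbour on chromosome 6 and of the same family, gave 732 in RNAi and 101 in ZH11, 7.25-fold higher, by a probe set open to matches with related transcripts. AOS1, an allene oxide synthase of the main synthesis route, gave 3748 in RNAi and 1292 in ZH11, 2.90-fold higher. OPR7, the family member known to act in jasmonate synthesis in rice, was within 2-fold at 2514 in RNAi and 2234 in ZH11. The allene oxide cyclase gene aoc was within 2-fold as well, at 4648 in RNAi and 3638 in ZH11. So was the lipoxygenase gene LOX5, at 4351 in RNAi and 3530 in ZH11.

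Genes for the perception of jasmonate were within 2-fold, with 1 exception in the list. The F-box receptor genes COI1A (5012 in RNAi, 5786 in ZH11), COI1B (2089 in RNAi, 2444 in ZH11) and COI2 (1627 in RNAi, 1745 in ZH11) were within 2-fold. So were NINJA1, the adaptor that links JAZ proteins to a co-repressor, at 2089 in RNAi and 2381 in ZH11, and JAR1, which joins jasmonate to isoleucine, at 298 in RNAi and 373 in ZH11. The exception in this list of 6 genes above the floor was BHLH148, a transcription factor known to bind JAZ proteins in rice. It gave 3854 in RNAi and 45.1 in ZH11, at least 54.3-fold higher. BHLH148 was therefore below the floor in ZH11 and bright in RNAi.

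**Figure D2:**
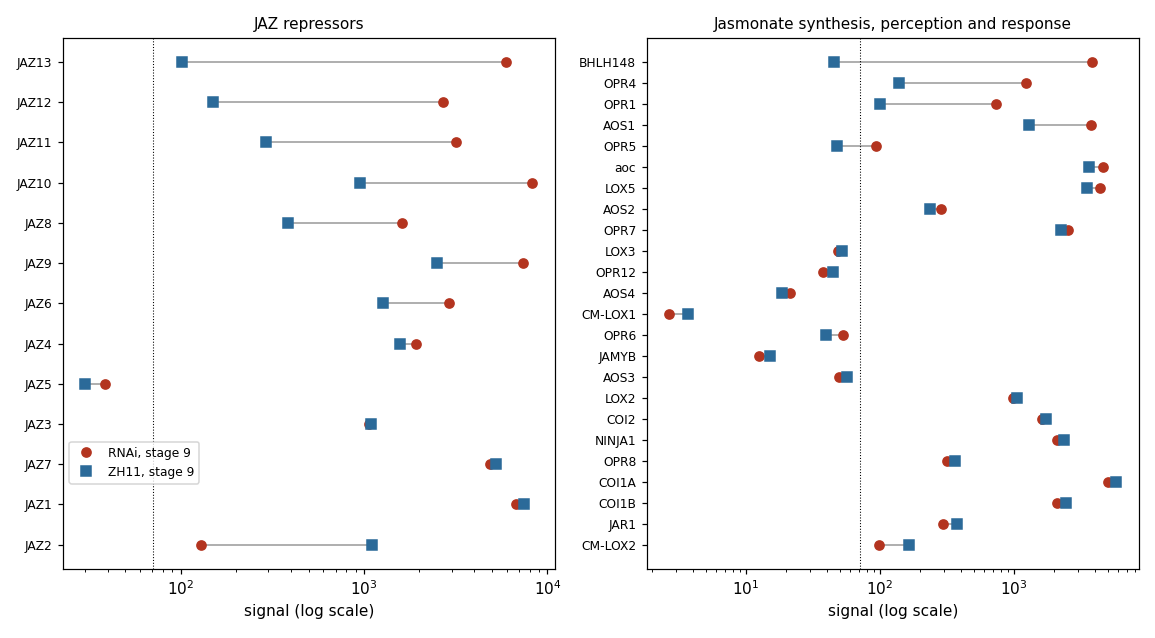
Signals (log scale) of the JAZ repressor genes (left) and of the genes of jasmonate synthesis, perception and response (right) in RNAi (red circles) and ZH11 (blue squares) at stage 9, 1 array each, ordered from the highest ratio at the top to the lowest; the dotted line is the floor of 71. JAZ13 at 5923 in RNAi and 102 in ZH11, and BHLH148 at 3854 in RNAi and 45.1 in ZH11, show the widest gaps, while COI1A, COI1B and OPR7 have short gaps.

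Transcription factor genes of stress responses were also among the highest. WRKY71, a factor of defence responses, gave 5262 in RNAi and 165 in ZH11, 31.8-fold higher, and both of its probe sets were higher, at log2 ratios of 3.47 and 4.99. WRKY24 gave 310 in RNAi and 28.1 in ZH11, at least 4.37-fold higher, and WRKY76 gave 239 in RNAi and 116 in ZH11, 2.07-fold higher. Hence 3 of the 5 WRKY genes above the floor were higher and none was lower. Only 6 WRKY genes carried a usable name here, a small part of this large family.

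Among the NAC factors, 3 of 6 were higher and 1 was lower. NAC5 gave 1107 in RNAi and 219 in ZH11, 5.06-fold higher. NAC6, known for its part in stress tolerance, gave 3144 in RNAi and 741 in ZH11, 4.24-fold higher. The lowest of its 3 probe sets had a log2 ratio of 0, as both signals were below the floor. The median of the 3 was also 0, so the call rests on the brightest probe set. NAC3 was 3.03-fold higher at 1630 in RNAi and 538 in ZH11. NAC010 was the lower member, below the floor in RNAi and at 184 in ZH11, at least 2.59-fold lower. MYB2, linked to salt and cold tolerance, gave 834 in RNAi and 44.8 in ZH11, at least 11.7-fold higher. MYB4, a factor of the cold response, gave 5198 in RNAi and 865 in ZH11, 6.01-fold higher. These were the 2 higher genes among 8 MYB genes above the floor, and the other 6 were within 2-fold.

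Of the AP2/ERF and DREB factors, which switch on genes of cold and drought responses, 2 of 9 were higher and none was lower. DREB1A gave 814 in RNAi and 204 in ZH11, 3.99-fold higher. Its neighbour on chromosome 9, DREB1B, gave 3119 in RNAi and 1293 in ZH11, 2.41-fold higher. DREB1E (850 in RNAi, 444 in ZH11) and DREB1G (1174 in RNAi, 699 in ZH11) stayed short of 2-fold on the same side. No bZIP factor of 15 above the floor was past 2-fold, from ABF2 at a log2 ratio of 0.94 to OsbZIP37 at -0.47.

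Heat shock proteins, the chaperones made under heat and other stress, and their factors counted 9 higher and 2 lower of 43 above the floor. The heat shock factor gene HSF07 gave 3370 in RNAi and 341 in ZH11, 9.88-fold higher. HSF1 gave 1982 in RNAi and 388 in ZH11, 5.11-fold higher, and its 2 probe sets had nearly the same ratio. Of the small heat shock proteins, HSP24.1 gave 673 in RNAi and 45.5 in ZH11, at least 9.48-fold higher. HSP17.4 gave 884 in RNAi and 162 in ZH11, 5.46-fold higher. The other 5 higher members were HSP17.8, HSP18.6, HSF24, CLPB1 and HSF05, between 2.03-fold and 2.75-fold. HSP17.9B was lower, at 1765 in RNAi and 3821 in ZH11, and HSP18.8 was lower at 158 in RNAi and 324 in ZH11. Both would be within 2-fold on the poly-A scale. The family thus split in direction, although most of its members past 2-fold were higher.

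Type 2C protein phosphatases, some of which hold abscisic acid signalling in check, counted 7 higher and 1 lower of 55. That is 14.5% past 2-fold, against 5.55% of all genes above the floor. Most members were within 2-fold, and the list median was a log2 ratio of 0.07. OsPP2C29 gave 1998 in RNAi and 148 in ZH11, 13.5-fold higher. OsPP2C35 gave 2538 in RNAi and 564 in ZH11, 4.50-fold higher. PP2C68 gave 1350 in RNAi and 393 in ZH11, 3.43-fold higher. OsPP2C61, OsPP2C02, OsPP2C32 and PP2C30 stood between 2-fold and 2.25-fold higher, and the last 2 of these lay right at the limit. OsPP2C12 was 2.32-fold lower at 224 in RNAi and 518 in ZH11, but within 2-fold on the poly-A scale. LEA and dehydrin genes, whose proteins protect cells from drying, went both ways on the deposited scale, with 3 higher and 2 lower of 7. Scaled to the poly-A controls, the list counted 3 higher and none lower. RAB16B (312 in RNAi, 104 in ZH11) was 2.99-fold higher, whereas its close relative RAB16C (130 in RNAi, 306 in ZH11) was 2.35-fold lower. Dhn1 was 2.39-fold higher at 5210 in RNAi and 2177 in ZH11, but its 3 probe sets ranged from -0.12 to 1.26 in log2 ratio.

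By the probe set standing for each gene, genes past 2-fold in the 4 calcium lists were all higher in RNAi, apart from OsCPK21. Past 2-fold were 11.8% of calcium-dependent protein kinase genes, 12.0% of calmodulin-like sensors, 4% of CBL and CIPK genes and 11.1% of pumps and channels. The share over all genes above the floor was 5.55%. In the same order, the list medians of the log2 ratio were -0.09, -0.07, -0.13 and 0.08, against -0.04 over all genes. Of 20 calcium-dependent protein kinase genes on the array, 17 were above the floor, of which OsCPK21 was lower and CPK4, at 2378 in RNAi and 956 in ZH11, was 2.49-fold higher. The other 15 above the floor were within 2-fold, from CPK13 at a log2 ratio of 0.66 to CPK12 at -0.29. CPK2, CPK22 and CPK29 were below the floor on both arrays at stage 9. Among 25 calmodulin-like sensor genes above the floor, 3 were higher and none lower. CML31 gave 4959 in RNAi and 572 in ZH11, 8.67-fold higher, CML32 gave 392 in RNAi and 35.4 in ZH11, at least 5.52-fold higher, and CML27 gave 4250 in RNAi and 1783 in ZH11, 2.38-fold higher. ACA7, a calcium pump that moves calcium out of the cytosol, gave 1440 in RNAi and 219 in ZH11, 6.57-fold higher, the only 1 of 9 pump and channel genes above the floor past 2-fold. CIPK21, a kinase that works with calcineurin B-like calcium sensors, was 2.63-fold higher at 292 in RNAi and 111 in ZH11. It was the only 1 of 25 CBL and CIPK genes above the floor past 2-fold. A dimmer probe set for CIPK23 gave 157 in RNAi and 821 in ZH11, a log2 ratio of -2.39, beside -0.02 for its brighter one. With the median over probe sets, the CBL and CIPK list counted 1 higher and 1 lower. A dimmer probe set for ACA8 gave 268 in RNAi and 62.4 in ZH11, a log2 ratio of 1.91, beside -0.04 for its brighter one. Among 16 genes of the MAP kinase cascade, MPK7 (2480 in RNAi, 798 in ZH11) was 3.11-fold higher and MPK5 (5455 in RNAi, 2413 in ZH11) was 2.26-fold higher.

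Tapetum and pollen wall genes held the lowest ratio of all named genes. Of 16 such genes, all above the floor on either array, 5 were lower in RNAi and 1 was higher, with a median log2 ratio of -0.22, which becomes 0.34, with 2 lower and 2 higher, on the poly-A scale. OsC6, which encodes a tapetal lipid transfer protein needed for the pollen wall, gave 45.4 in RNAi and 8767 in ZH11, at least 123-fold lower. It was below the floor in RNAi and among the brightest genes in ZH11. EAT1, a bHLH factor that promotes the programmed death of the tapetum, gave 505 in RNAi and 1989 in ZH11, 3.94-fold lower. AP25, an aspartic protease gene that EAT1 is known to switch on in rice, gave 3760 in RNAi and 8803 in ZH11, 2.34-fold lower. RAFTIN1, a BURP-domain protein made by the tapetum, gave 1275 in RNAi and 3414 in ZH11, 2.68-fold lower. CP1, a cysteine protease gene, gave 25.8 in RNAi and 176 in ZH11, at least 2.48-fold lower. On the poly-A scale only OsC6 and EAT1 of these 5 would still be lower, with AP25, RAFTIN1 and CP1 at log2 ratios of -0.59, -0.78 and -0.99.

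Other genes of the same tissue were within 2-fold or higher. PTC1, a PHD-finger factor of tapetum death and pollen wall formation, was higher, with 3282 in RNAi and 1491 in ZH11, 2.20-fold, by a probe set open to matches with related transcripts. TIP2 (bHLH142), a factor that acts ahead of EAT1 in rice, stayed within 2-fold at 1539 in RNAi and 857 in ZH11, as did TDR at 3571 in RNAi and 2841 in ZH11. OsC4, a relative of OsC6, remained among the brightest genes on both arrays at 9776 in RNAi and 12657 in ZH11. CYP703A3, a fatty acid hydroxylase for pollen wall precursors, was bright on both arrays as well, at 7113 in RNAi and 8854 in ZH11. GAMYB, the gibberellin-regulated factor of the tapetum, read 1613 in RNAi and 1970 in ZH11. Many of the tapetum markers were thus bright on both arrays, while OsC6 and CP1 were below the floor in RNAi. In bulk spikelets, fewer cells of a type and less RNA per cell cannot be told apart.

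Markers of meiosis and of floral organs were within 2-fold. Of 9 meiosis genes above the floor, none was past 2-fold, and all 9 had log2 ratios above 0, from 0.18 for PAIR1 to 0.53 for DMC1, with a median of 0.34, which becomes 0.94, with 2 genes past 2-fold, on the poly-A scale. DMC1, the recombinase of meiosis, read 167 in RNAi and 115 in ZH11, and MEL1, a germline Argonaute, read 985 in RNAi and 769 in ZH11. Of 10 genes for stamen and floral organ identity, none was past 2-fold, and all 10 had log2 ratios below 0, with a median of -0.34, which becomes 0.30 on the poly-A scale. The lowest of them was the stamen identity gene MADS3, with 434 in RNAi and 708 in ZH11. On the deposited scale the meiosis and the floral genes thus lay on opposite sides of 0, and on the poly-A scale both medians were above it. Their part in the tapetum values was not tested.

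Of 8 late pollen genes, 4 were above the floor at stage 9 and none of these was past 2-fold. The pollen beta-expansin gene EXPB9 read 51.8 in RNAi and 53.4 in ZH11, EXPB10 read 14.4 in RNAi and 6.84 in ZH11, and the actin-binding gene ADF1 read 58.9 in RNAi and 59.1 in ZH11, all at or below the floor. At stage 12 the same 3 genes read 56.4, 14.4 and 105 in RNAi, against 13529, 11378 and 7845 in ZH11. Photosynthesis genes, which mark the green parts of the spikelet, had none past 2-fold of 10 above the floor, with a median log2 ratio of -0.36, or 0.28 on the poly-A scale. PSAG was the lowest of these, at 223 in RNAi and 429 in ZH11. The 4 MADS-box genes of lemma, palea and spikelet in the green tissue list, MADS1, MADS6, MADS14 and MADS15, had log2 ratios from -0.11 to 0.04. The 23 ribosomal protein genes and 5 histone genes had none past 2-fold, and their medians were 0.09 and 0.08.

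**Figure D3:**
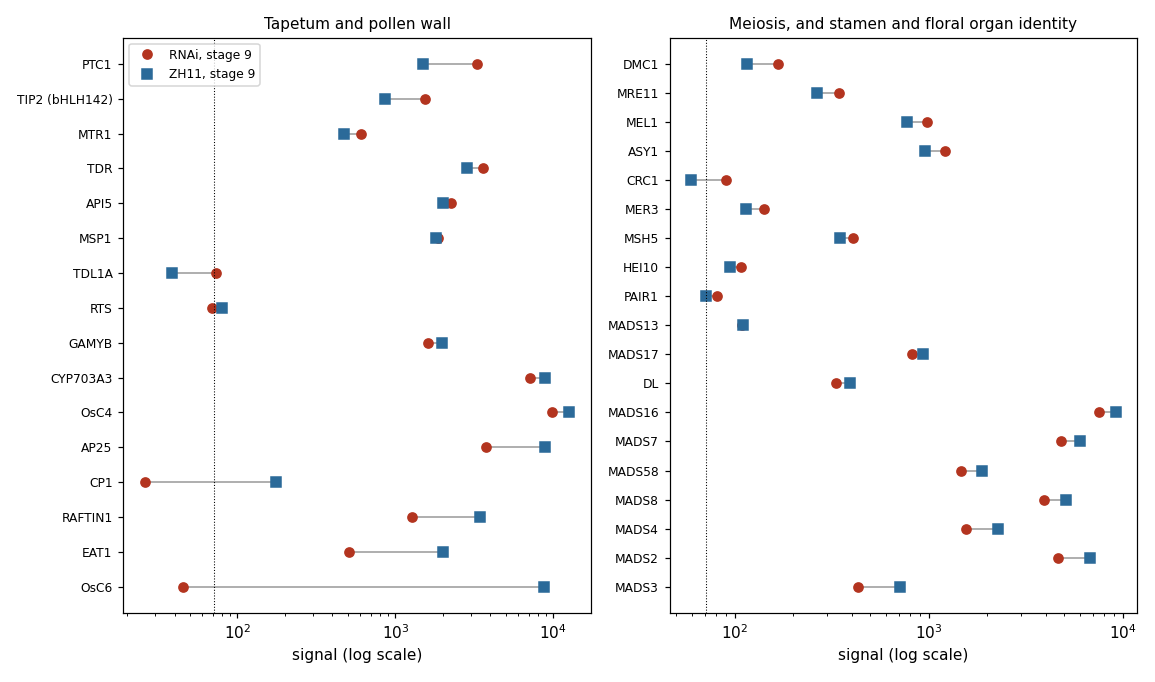
Signals (log scale) of tapetum and pollen wall genes (left) and of meiosis and of stamen and floral organ identity genes (right) in RNAi (red circles) and ZH11 (blue squares) at stage 9, 1 array each, ordered from the highest ratio at the top to the lowest; the dotted line is the floor of 71. OsC6 stands apart at 45.4 in RNAi and 8767 in ZH11, EAT1 follows at 505 and 1989, and the meiosis and floral genes keep short gaps.

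Several metabolic and transport genes were lower in RNAi. HXK6, a hexokinase that phosphorylates glucose, gave 132 in RNAi and 2492 in ZH11, 18.8-fold lower, while the other 25 sugar transporter, invertase and hexokinase genes above the floor were within 2-fold. NIP4-1, an aquaporin, gave 51.4 in RNAi and 2244 in ZH11, at least 31.6-fold lower. Lsi6, a silicon channel of the same superfamily, gave 555 in RNAi and 1550 in ZH11, 2.79-fold lower. These were the 2 aquaporin genes past 2-fold of 23 above the floor. Lsi6 would be within 2-fold on the poly-A scale. Of 40 metal transport and metallothionein genes, 4 were lower and none higher. They were MT1B (at least 3.70-fold), HMA5 (3.24-fold), ZIP5 (2.32-fold) and NRAMP4 (2.17-fold), none brighter than 370 in ZH11. MT1B is a metallothionein and the other 3 are metal transporters. Of these 4, only MT1B and HMA5 keep 2-fold on the poly-A scale, where the list counts 3 higher and 2 lower.

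Phenylpropanoid and flavonoid genes went both ways, with 2 higher and 3 lower of 15. PAL06, for phenylalanine ammonia-lyase at the entry of the pathway, gave 1378 in RNAi and 176 in ZH11, 7.84-fold higher, and its 2 probe sets had nearly equal ratios. The 4-coumarate-CoA ligase genes split, with Os4CL5 (2582 in RNAi, 540 in ZH11) 4.78-fold higher and Os4CL3 (921 in RNAi, 2008 in ZH11) 2.18-fold lower. Os4CL3 would be within 2-fold on the poly-A scale. CHS1, for chalcone synthase, gave 176 in RNAi and 3096 in ZH11, 17.6-fold lower by its brightest probe set. Its 5 probe sets ranged from -4.14 to 0 in log2 ratio, and their median was -0.06, so the call rests on part of them. ASMT3 was 4.45-fold lower at 79.1 in RNAi and 352 in ZH11.

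In the lists for other hormones, 4 genes were past 2-fold. Of 52 auxin genes above the floor, GH3-8 and GH3.9, of the family that joins auxin to amino acids, were higher, and none was lower. GH3-8 gave 1139 in RNAi and 296 in ZH11, 3.85-fold higher, and GH3.9 gave 681 in RNAi and 211 in ZH11, 3.23-fold higher. Of 26 cytokinin genes, LOGL6, of the family that releases active cytokinin, was 3.24-fold higher at 637 in RNAi and 197 in ZH11. The response regulator gene RR9 was 2.84-fold lower at 950 in RNAi and 2696 in ZH11, but within 2-fold on the poly-A scale. None of 9 ethylene, 8 brassinosteroid and 5 abscisic acid genes was past 2-fold. Cell division genes counted 4 higher and none lower of 59, which were CYCB1-3 (636 in RNAi, 230 in ZH11), CYCD2-2 (559 in RNAi, 245 in ZH11), OsMCM6 (469 in RNAi, 217 in ZH11) and MCM3 (374 in RNAi, 177 in ZH11). The first 2 are cyclins and the others belong to the DNA helicase of replication. Past 2-fold were 3.85% of auxin, 7.69% of cytokinin and 6.78% of cell division genes, against 5.55% of all genes above the floor.

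The rest of the genes with the highest and lowest ratios came from many families. BC1L9, a COBRA-like gene of a family tied to cell walls, gave 1748 in RNAi and 67.2 in ZH11, at least 24.6-fold higher, and its other probe set was higher too. RFS (395 in RNAi, 69.5 in ZH11) was at least 5.56-fold higher. OsPM19L1 (493 in RNAi, 43.4 in ZH11) was at least 6.94-fold higher, although its other probe set was below the floor on both arrays. TPP7, a trehalose phosphatase gene, gave 5852 in RNAi and 1648 in ZH11, 3.55-fold higher, while its probe set without possible cross-matches had a log2 ratio of 0.72. GRXS5, a glutaredoxin gene, was 3.89-fold higher at 6664 in RNAi and 1712 in ZH11. The potassium channel gene AKT1 was 3.35-fold higher at 784 in RNAi and 234 in ZH11. At the low end, the formin gene FH10 (64.3 in RNAi, 366 in ZH11) was at least 5.16-fold lower and the glucanase gene GLU15 (203 in RNAi, 973 in ZH11) was 4.79-fold lower. HIRL2 was at least 4.28-fold lower, the lectin gene salT 4.26-fold lower, GST1 3.62-fold lower, ERG1 3.51-fold lower, MFT1 3.32-fold lower, MADS55 3.18-fold lower, LBD6 2.89-fold lower and PMT 2.85-fold lower. LBD6 and PMT would fall within 2-fold on the poly-A scale. Genes known here only by locus number reached past most of these. LOC4335417 on chromosome 4 gave 6759 in RNAi and 90.7 in ZH11, 74.5-fold higher, and LOC4349792 on chromosome 11 gave 2949 in RNAi and 17.2 in ZH11, at least 41.5-fold higher. LOC4327696 on chromosome 1 gave 56.4 in RNAi and 5151 in ZH11, at least 72.6-fold lower, and LOC4336712 on chromosome 4 gave 34.2 in RNAi and 4169 in ZH11, at least 58.7-fold lower. These 4 were among the most extreme genes of the comparison, with OsC6 and JAZ13.

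**Figure D4:**
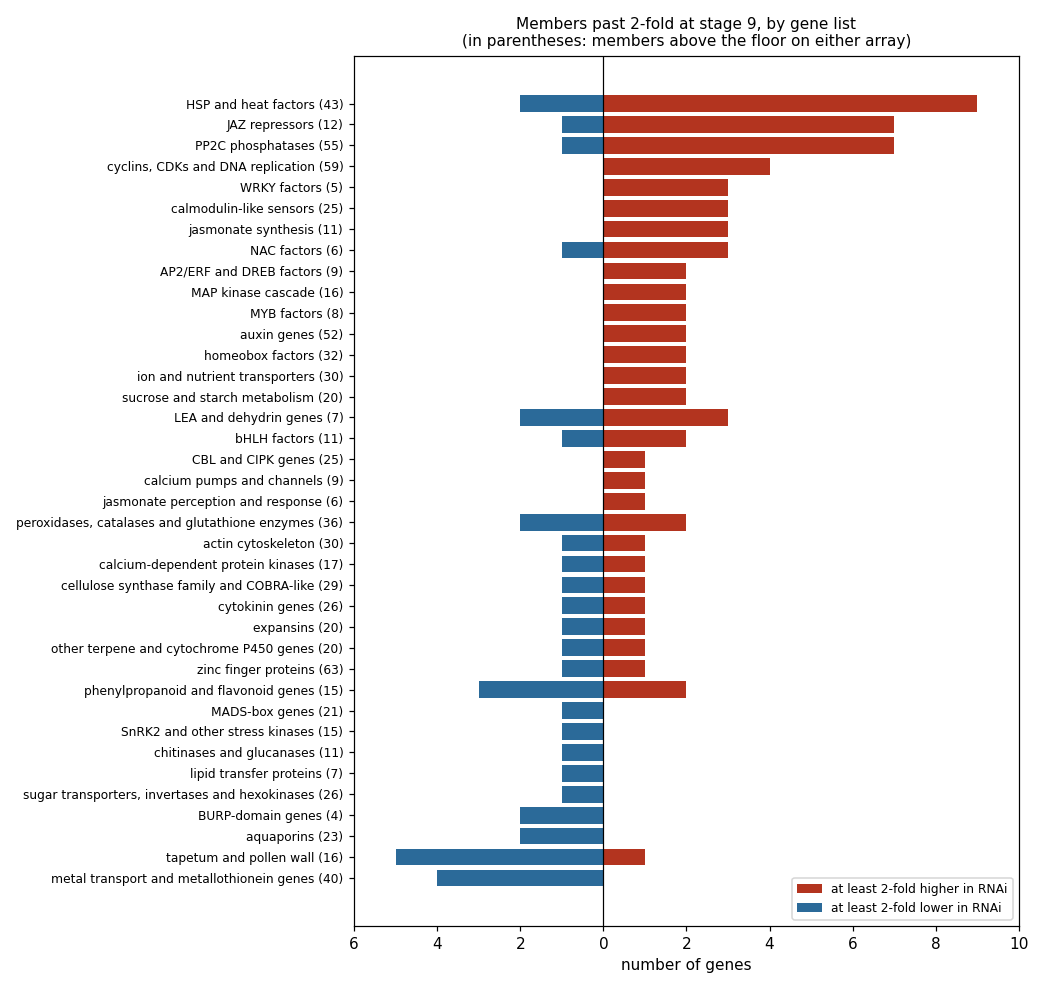
Number of genes at least 2-fold higher (red, right) and at least 2-fold lower (blue, left) in RNAi at stage 9 in each gene list with a member past 2-fold; the members above the floor on either array are in parentheses, and a gene may be in more than 1 list. Heat shock genes (9 higher, 2 lower of 43) and JAZ repressors (7 higher, 1 lower of 12) have the longest red bars, with PP2C phosphatases (7 higher, 1 lower of 55) level with the JAZ genes, and tapetum and pollen wall genes (5 lower, 1 higher of 16) the longest blue bar.

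Of 54 gene lists in all, 16 had no member past 2-fold. The share of members past 2-fold in either direction was highest for the LEA and dehydrin (71.4%), JAZ (66.7%), NAC (66.7%), WRKY (60.0%), BURP-domain (50.0%) and tapetum (37.5%) lists, against 5.55% over all genes. Several of these lists are small, and the lists were drawn up with earlier results of these data known. The genes just inside and just outside the 2-fold limit had log2 ratios of 1.0007 for LOC4334359 and 0.9996 for LOC4335968 on the higher side. On the lower side these were -1.0012 for LOC4341023 and -0.9993 for LOC4331231.

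Several probe sets for the same gene gave some measure of precision within the arrays. Over 2226 genes with at least 2 probe sets above the floor, the SD of the log2 ratio within genes was 0.285, well short of the 2-fold limit. This SD covers probe differences on shared RNA and does not stand for the spread between plants. Of 64 higher genes with at least 2 such probe sets, 37 had every probe set past 2-fold and 60 had every probe set on the same side. Of 37 lower genes, 19 had every probe set past 2-fold and 33 had every probe set on the same side. LOC4329350 alone had probe sets past 2-fold in both directions, at log2 ratios of -1.12 and 1.11.

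RNAi and ZH11 were also compared at stage 12, on the other 2 arrays. At stage 12, 456 of 15970 genes above the floor were higher in RNAi (2.86%) and 1124 were lower (7.04%). Of the 504 genes higher at stage 9, 106 were also higher at stage 12, which is 21.0% of these genes and 23.2% of those higher at stage 12. Another 27 were lower at stage 12. Of the 348 genes lower at stage 9, 42 were also lower at stage 12, which is 12.1% of these genes and 3.74% of those lower at stage 12, and 21 were higher there. The stages share no array, and whether the genotype ratios differ between them was not tested.

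OsCPK21 and JAZ2 were low in RNAi at both stages. JAZ2 read 33.7 in RNAi and 966 in ZH11 at stage 12, a log2 ratio of -3.77, beside -3.09 at stage 9. The highest ratios of stage 9 stood beside lower ones at stage 12. These genes were picked by their stage 9 ratio, and a pick of extremes tends to be less extreme on other arrays. JAZ13 had a log2 ratio of 5.86 at stage 9 and 1.06 at stage 12, where it read 1121 in RNAi and 538 in ZH11. BHLH148 had 5.76 at stage 9 and 1.24 at stage 12, and WRKY71 had 4.99 at stage 9 and 0.35 at stage 12, where it was bright in both genotypes at 5076 in RNAi and 3972 in ZH11. RFS was higher at both stages, at 2.48 and 2.17. OsC6 was dim by stage 12, at 37.8 in RNAi and 162 in ZH11, as was EAT1, at 50.7 in RNAi and 94.9 in ZH11. CPK2, CPK22 and CPK29, below the floor on both arrays at stage 9, read 18.9, 32.5 and 24.7 in RNAi at stage 12, against 3027, 2779 and 2510 in ZH11.

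**Figure D5:**
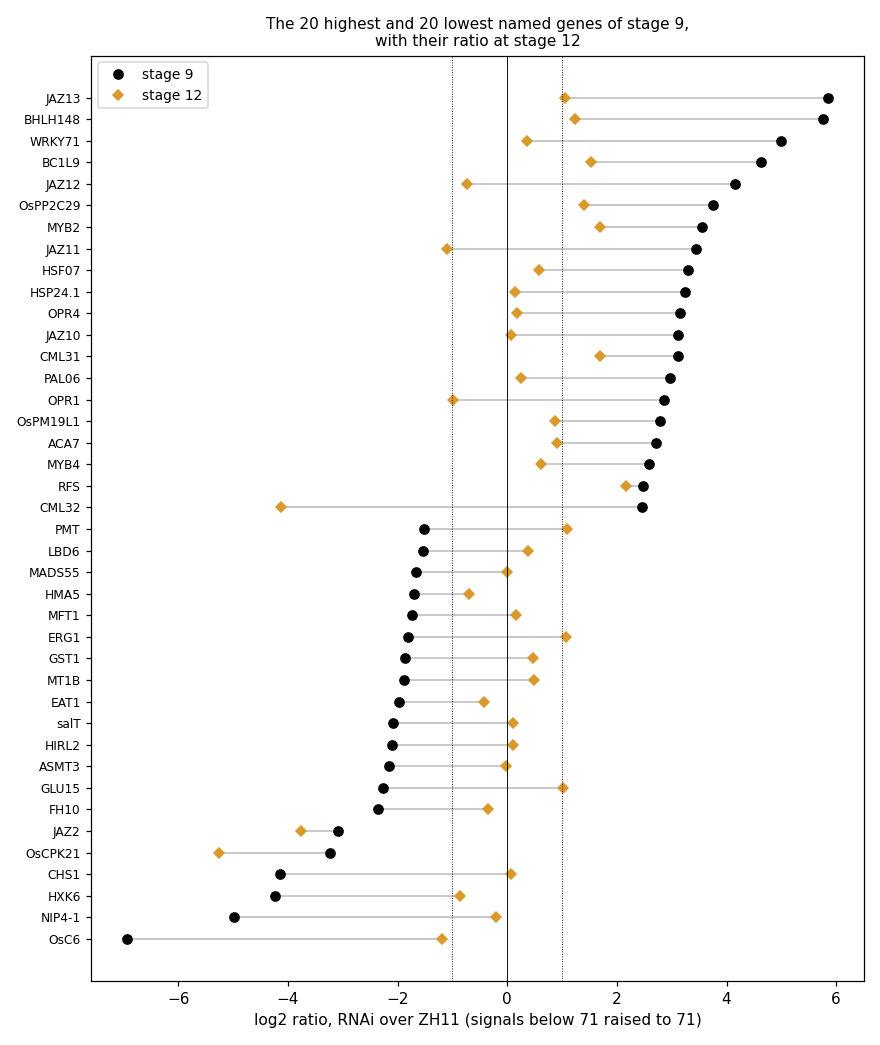
Log2 ratio of RNAi over ZH11 at stage 9 (black circles) and at stage 12 (ochre diamonds) for the 20 named genes with the highest and the 20 with the lowest ratio at stage 9, 1 array per genotype and stage; dotted lines mark 2-fold either way. JAZ2 and OsCPK21 are low at both stages, RFS is high at both, and CML32 crosses from 2.46 at stage 9 to -4.13 at stage 12.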

How the data were processed

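RNA of whole rice spikelets was hybridised to the 1-colour Affymetrix Rice Genome Array. The authors deposited linear intensities, 1 per probe set and array, made with MAS5 per the submitters' processing notes, and its version and settings are not given in the sources used here. Titles set the groups. Left out were 187 control probe sets, 64 of them reporters, and, for gene counts, 95 probe sets with several genes and 34663 with none. Names came from the RefSeq table of assembly ASM3414082v1, which held all 17905 genes and named 2450 of them. Signals under 71 were raised to 71, and log2 ratios were taken with Python 3.11.15, NumPy 2.4.6 and pandas 2.3.3, after a check on simulated data. That check covered only large changes in bright probe sets, so it says nothing on calls near 2-fold or near the floor. A gene was called at 2-fold or more with the brighter array above 71. Named were OsCPK21, the 20 highest and 20 lowest named genes, list members past 2-fold or at the ends of a list, and the 2 highest and lowest unnamed loci and probe sets, with further list members, chosen after their values were seen, for contrast. The comparison and the gene lists, matched by symbol, were chosen with earlier results of these data known, and 66 list entries were dropped because their names are those of other proteins. Alternatives were other floors, a pseudocount, other scalings and other probe set rules. With 1 array a group no test was made, and precision is limited by that number.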

Additional observations from a re-analysis of the deposited data

Results flagged for a closer look

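The reporter probe sets lie outside the members and carried signal. RPTR-Os-K01193-1_at read 841 in RNAi and 10742 in ZH11 at stage 9, and RPTR-Os-A00196-1_s_at read 380 in RNAi and 5523 in ZH11, while the other 62 reporters read at most 105 on any array. Both were higher on the array titled ZH11, which the genotype characteristic calls RNAi, and OsCPK21 was 9.41-fold lower on the array titled RNAi. Neither the files nor the labels name the transcripts these probe sets read.

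Of the 118 genes past 2-fold at stage 9 that the naming rule picked, 4 of them known by locus number only, 8 were past 2-fold in the opposite direction at stage 12. Of all 504 genes higher at stage 9, 27 (5.36%) were lower at stage 12, and of all 348 lower ones, 21 (6.03%) were higher there. Over all 17905 genes, 6.28% were lower in RNAi at stage 12 and 2.55% were higher. The difference between the stages was not tested. Higher in RNAi at stage 9 and lower at stage 12 were CML32, with log2 ratios of 2.46 and -4.13, GH3-8, with 1.94 and -3.18, JAZ9, with 1.54 and -2.65, and JAZ11, with 3.45 and -1.10. Lower at stage 9 and higher at stage 12 were RAFTIN1, with -1.42 and 3.43, GLU15, with -2.26 and 1.02, PMT, with -1.51 and 1.08, and ERG1, with -1.81 and 1.07.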

How the results depend on the processing

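Under the alternatives planned, the genes higher in RNAi numbered 415 to 551, beside 504, and the genes lower 261 to 398, beside 348. Scaling to the poly-A controls, added after seeing the data, gave 2813 probe sets and 1650 genes higher, and 236 probe sets and 129 genes lower, so that 92.7% of called genes were higher, against 59.2% on the deposited scale. Of the 118 genes past 2-fold that the naming rule picked, 81 kept the call under every alternative that gave a value. The call was lost by 22 under the poly-A scale, 11 with a floor 2 times as high, 8 with a pseudocount of 16, 6 with the median over probe sets, 2 with median scaling and 2 of the 100 with a value when possibly cross-matching probe sets were left out. None of the 118 turned its sign. No paired analysis was possible because each group was 1 array. Signals near the floor give only bounds.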

Other observations

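Among genes on the array, ordered along each chromosome by the RefSeq table, 61 of the 504 higher genes (12.1%) lay next to another higher gene, in 28 runs. Of the 348 lower genes, 29 (8.33%) lay next to another lower gene, in 14 runs. Over all 17905 genes, 2.81% were higher and 1.94% lower. Some like neighbours would arise by placement alone. As most genes have a neighbour on each side, that share would be larger than the shares over all genes, and it was not computed. The longest run was 5 higher genes on chromosome 1, LOC4325299, LOC4325301, LOC4326918, LOC4326919 and LOC4326920, with log2 ratios from 1.52 to 3.96. The longest run of lower genes was LOC4350578, LOC4350579 and LOC4350580 on chromosome 11, with log2 ratios of -1.04, -3.10 and -4.20. Named runs of higher genes were JAZ9, JAZ11 and JAZ10, OPR4 and OPR1, DREB1B and DREB1A, and JAZ13 and JAZ12. Neighbours of this kind may be copies that share probes.

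Chromosome 11 stood out in its balance, with 12 higher genes (1.77%) and 33 lower genes (4.87%) of 678 above the floor, beside 3.28% and 2.27% over all genes. Of its 33 lower genes, 7 were also lower in RNAi at stage 12 (21.2%), against 42 of the 348 on all chromosomes (12.1%), 8 of 32 on chromosome 7 (25.0%) and 4 of 20 on chromosome 8. Chromosome 12 had 8 higher genes (1.05%) and 19 lower genes (2.49%) of 764. Chromosome 1 had 93 higher genes (4.06%) and 48 lower genes (2.09%) of 2293. These shares were picked out after all chromosomes had been looked at.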
